A study of Gallus gallus with 10 samples.

Results

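The genes described here are those that mark the retinal pigment epithelium, the pigmented sheet that forms from the outer layer of the optic cup and lies against the neural retina. They were chosen by name, as PMEL, TYR, TYRP1, DCT, MITF, TRPM1, OCA2, SLC45A2, SLC24A5 and GPR143. Of these 10 genes, 9 were among the 12464 genes of the deposited table, and GPR143, a melanosomal receptor, was not analysed here. Operated retinas came from wild-type Dekalb white chicken embryos of Hamburger and Hamilton stage 23, at about embryonic day 4, in which the lens of 1 eye had been drawn out through a dorsal slit 6 h before the retina was taken. Control retinas came from the other eye of the same embryos, which kept its lens and was not cut open. Each group held 5 single retinas, paired by embryo, and loss of the lens cannot be told apart from the cut itself. The labels name the tissue as optic cup, and transcripts of the neural retina were abundant in it: the secreted Wnt inhibitor gene SFRP1 averaged 332 ± 21.1 in operated and 309.5 ± 34.4 in control retinas (SD, n = 5 each), a gene picked after its values were seen. The sex of the embryos was not given, and TYRP1 and SLC45A2 lie on the chicken Z chromosome; no comparison by sex was made.

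Cells of the pigment epithelium make melanin in lysosome-related organelles, the melanosomes. The transcription factor MITF switches on the genes of the melanosome, PMEL builds the fibrils on which melanin is laid down, TYR, TYRP1 and DCT make the pigment, and the channels and transporters encoded by TRPM1, OCA2, SLC45A2 and SLC24A5 are tied to the ion balance of pigment cells. Known plumage colour alleles of the chicken lie in PMEL, TYR and SLC45A2.

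Values are the authors' normalised read counts, in libraries whose totals ran from 979286 to 1033235 and whose effective size, read from the spacing of low values, was 18671000 to 26005000 reads. Single values of the pigment genes rested on between 44 reads (SLC45A2 in an operated retina) and 8043 reads (TRPM1 in a control). Log2 changes are operated over control within embryos on the log2(value + 1) scale, which understates the change of low genes, from limma (a moderated linear model) across all 12464 genes, with Benjamini-Hochberg adjusted p-values and a threshold of 0.05. All libraries carry the same batch label. The control library of embryo 5 stood apart for pigment genes: it was the highest of the 10 libraries for 8 of the 9 genes, as it was for 17.8% of all genes. Calls of the pigment genes are therefore given with and without embryo 5, and those of other genes only in part.

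Of the 9 pigment genes, 5 fell in the operated retinas (TYR, TYRP1, TRPM1, OCA2 and SLC45A2), 0 rose and 4 did not pass (PMEL, DCT, MITF and SLC24A5). Over all genes 10.1% were called lower and 11.5% higher. The median log2 change of the 9 genes was -0.50, against 0.017 over all genes. Without embryo 5 the number that fell was 4 of 9 and the number that rose 0 of 9, beside 7.81% and 9.79% of all genes, since TYR no longer passed, and the median log2 change was -0.39. Only 5 of the 9 genes had a mean of at least 10; in a fit to genes of that level 2 of the 5, TYR and TRPM1, were called lower and 0 higher, beside 12.3% and 10.6% of all genes in it. The operated retina was the lower of the pair in 5 of 5 embryos for 3 of the 9 genes (TYRP1, TRPM1 and SLC45A2), beside 14.6% of all genes. In these bulk samples fewer pigment cells and less RNA per pigment cell cannot be told apart.

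**Figure D1:**
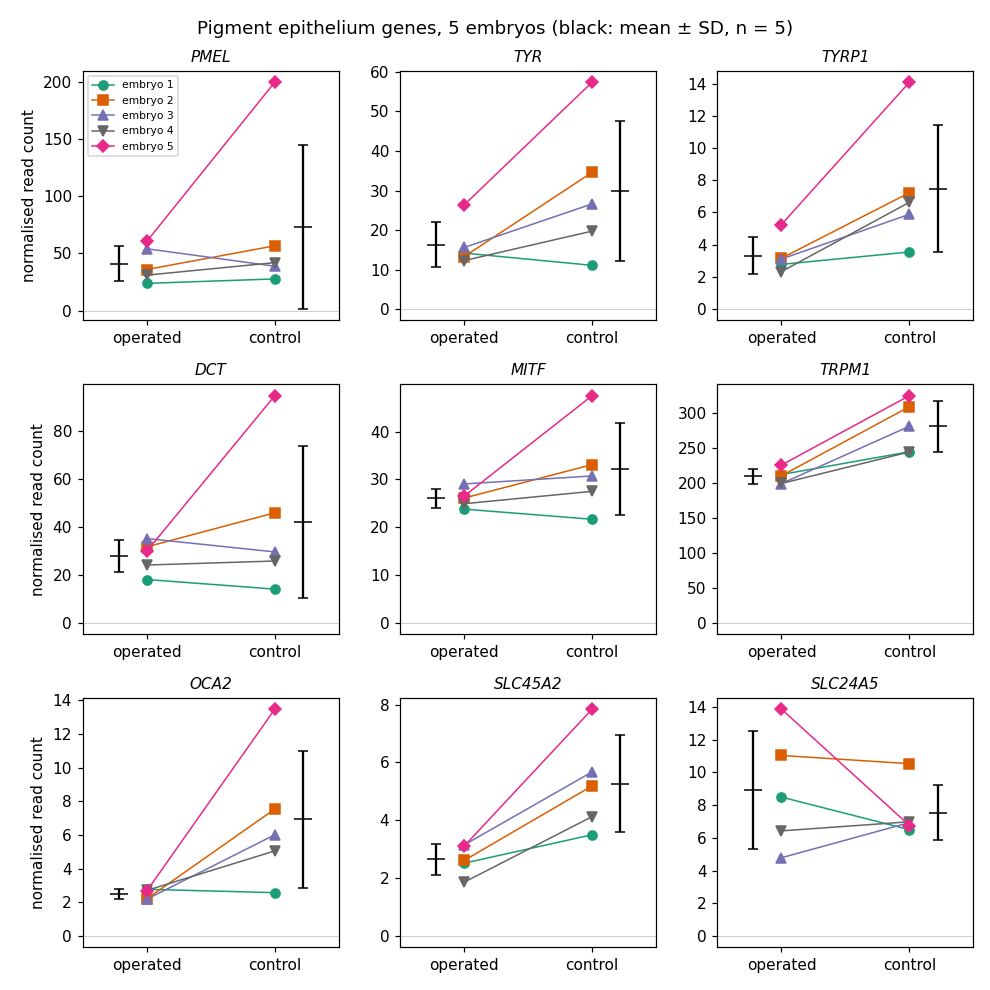
Normalised read count (y axis, linear, 1 scale per gene) of each pigment epithelium gene in the operated and control retina of 5 embryos. Lines join the 2 retinas of an embryo, black bars give the mean ± SD (n = 5); the control retina of embryo 5 is the highest point in every panel but that of SLC24A5, and the groups do not overlap for TRPM1 and SLC45A2.

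MITF, the basic helix-loop-helix factor on which all pigment cells depend, was at 23.8, 26.1, 29.1, 24.9 and 26.5 in the operated retinas of embryos 1 to 5, and at 21.7, 33.1, 30.7, 27.5 and 47.6 in their controls. The operated libraries lay close together and within the range of the controls, of which embryo 5 was the highest. Its log2 change was -0.25 (SE 0.12, limma adjusted p = 0.18), and -0.10 (adjusted p = 0.46) without embryo 5.

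PMEL, the fibril protein of the melanosome, showed the widest spread among the controls. It was at 23.8, 35.9, 54.0, 31.0 and 60.5 in the operated retinas of embryos 1 to 5, and at 27.6, 56.6, 38.8, 41.9 and 199.8 in their controls. The control of embryo 5 was 4.84 times the mean of the other 4 controls, and the operated retina was lower than its control in 4 of 5 embryos and higher in embryo 3. PMEL did not pass (log2 change -0.50, SE 0.24, limma adjusted p = 0.16), and its log2 change was -0.20 (adjusted p = 0.40) without embryo 5. It was called lower (log2 change -0.75, adjusted p = 0.025) without embryo 3.

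Of the 3 enzymes of melanin synthesis 2 were called lower, and differences between the enzymes were not tested. TYR, tyrosinase, which catalyses the rate-limiting step, was at 14.2, 13.3, 15.6, 12.3 and 26.4 in the operated retinas of embryos 1 to 5, and at 11.1, 34.6, 26.6, 19.7 and 57.4 in their controls. The operated retina was the lower of the pair in embryos 2 to 5 and the higher in embryo 1, whose control was the lowest of all 10 libraries. TYR fell by 0.69 on the log2 scale (SE 0.20, limma adjusted p = 0.034). Leaving out embryo 2, 3, 4 or 5 ended the call (adjusted p = 0.12, 0.055, 0.11 and 0.098), with log2 changes of -0.70 to -0.54, and so did a fit without the pairing by embryo (adjusted p = 0.21).

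TYRP1, a tyrosinase relative that acts late in the synthesis of brown-black melanin, was at 2.77, 3.16, 3.11, 2.33 and 5.25 in the operated retinas, and at 3.55, 7.23, 5.89, 6.63 and 14.1 in their controls. It was lower in the operated retina of all 5 embryos, by the least in embryo 1. TYRP1 fell by 0.89 on the log2 scale (SE 0.15, limma adjusted p = 0.0037), to an estimated 0.538 times the control on the scale used. Its log2 change was -0.80 (adjusted p = 0.012) without embryo 5.

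DCT, dopachrome tautomerase, the enzyme between tyrosinase and TYRP1 in the pathway, was at 18.0, 31.7, 35.1, 24.1 and 29.9 in the operated retinas, and at 14.0, 45.9, 29.6, 25.7 and 94.9 in their controls. The operated retina was lower in 3 embryos and higher in embryos 1 and 3, and the operated values lay within the range of the controls. Its log2 change was -0.33 (SE 0.24, limma adjusted p = 0.35) with all embryos and -0.0076 (95% interval -0.33 to 0.31, adjusted p = 0.98) without embryo 5.

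**Figure D2:**
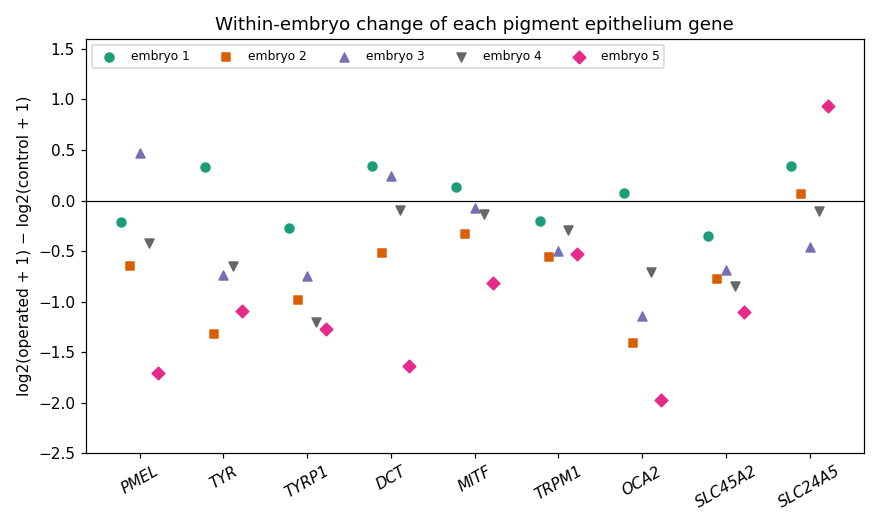
Difference between the operated and control retina of each embryo on the log2(value + 1) scale (y axis) for 9 pigment epithelium genes (x axis), with 1 marker per embryo. All 5 markers lie below 0 for TYRP1, TRPM1 and SLC45A2. For PMEL, DCT, MITF and OCA2 the marker of embryo 5 lies well below the others, at -1.71, -1.64, -0.82 and -1.98.

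Among channels and transporters, TRPM1 encodes a cation channel first described in melanocytes that in mammals also serves bipolar cells of the retina. It was at 212, 210.3, 199, 199 and 226 in the operated retinas of embryos 1 to 5, and at 245, 309, 281, 244 and 325 in their controls. Every operated library lay below every control, which held for 2 of the 9 genes, TRPM1 and SLC45A2, beside 5.9% of all genes. TRPM1 fell by 0.42 on the log2 scale (SE 0.067, limma adjusted p = 0.0031), and the value without embryo 5 was -0.39 (adjusted p = 0.012). Its control of embryo 5 was 1.20 times the mean of the other 4, a smaller excess than for any other gene of the set that was highest in that library.

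SLC45A2, a melanosomal membrane transporter whose alleles include the silver locus of the chicken, was at 2.52, 2.61, 3.15, 1.86 and 3.11 in the operated retinas, and at 3.50, 5.19, 5.68, 4.13 and 7.84 in their controls. The highest operated library lay narrowly below the lowest control, at 44 to 187 reads per library. These 2 were the operated retina of embryo 3 (75 reads) and the control of embryo 1 (83 reads). SLC45A2 fell by 0.75 on the log2 scale (SE 0.12, limma adjusted p = 0.0031), and the value without embryo 5 was -0.67 (adjusted p = 0.0091).

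OCA2, which in mammals encodes a melanosomal chloride channel, was at 2.77, 2.21, 2.18, 2.71 and 2.68 in the operated retinas, and at 2.57, 7.54, 6.01, 5.05 and 13.5 in their controls. The operated libraries were nearly level, whereas the controls ran over a 5.23-fold range from embryo 1 to embryo 5. With all embryos OCA2 had the largest log2 change of the 9 genes (-1.03, SE 0.24, limma adjusted p = 0.016) and was lower in 4 of 5 embryos. It was still called without embryo 5 (log2 change -0.795, adjusted p = 0.041, where TYRP1 was at -0.799), but not without embryo 2 (-0.94, adjusted p = 0.064) or embryo 4 (-1.11, adjusted p = 0.051).

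SLC24A5, a potassium-dependent sodium-calcium exchanger that melanin synthesis needs in fish and mammals, was called in neither direction. It was at 8.49, 11.04, 4.79, 6.43 and 13.9 in the operated retinas, and at 6.50, 10.5, 6.94, 6.99 and 6.75 in their controls. It was higher in the operated retina of 3 embryos and lower in 2, with the widest gap in embryo 5. The log2 change was 0.16 (SE 0.17, 95% interval -0.23 to 0.55, limma adjusted p = 0.55), and -0.040 (adjusted p = 0.86) without embryo 5.

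**Figure D3:**
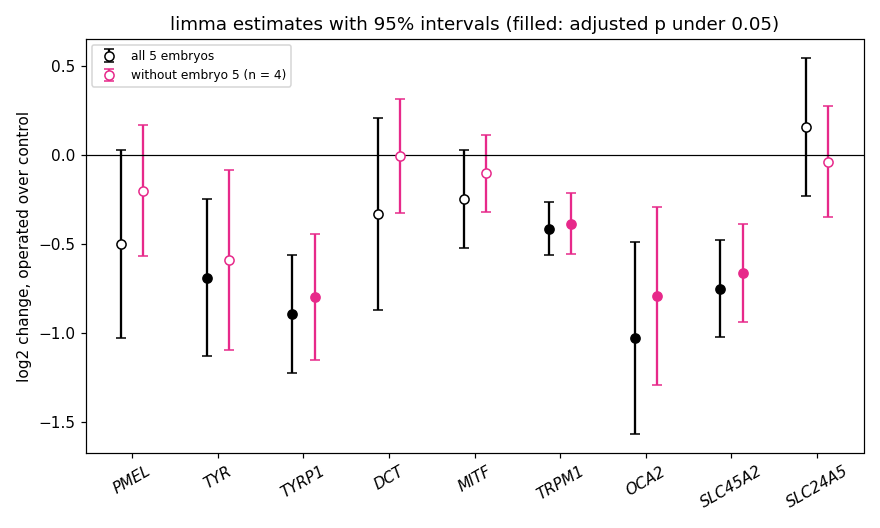
Log2 change of operated over control (y axis, log2(value + 1) scale) from limma, with 95% intervals, for each gene with all 5 embryos (black) and with the 4 embryos other than embryo 5 (pink); filled points passed at an adjusted p under 0.05. Without embryo 5 the estimates of PMEL, DCT and MITF move to -0.20, -0.0076 and -0.10, while TYRP1, TRPM1, OCA2 and SLC45A2 still pass.

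The genes differed in how far the control of embryo 5 lay above the other controls. This excess is not an exact measure of how far a log2 change moved without embryo 5. PMEL, DCT and OCA2, with the largest excess, moved from -0.50, -0.33 and -1.03 to -0.20, -0.0076 and -0.795. TRPM1, with a small excess, moved from -0.42 to -0.39. TYRP1, with a larger excess than MITF, moved from -0.89 to -0.80, and MITF from -0.25 to -0.10. The excess of the embryo 5 control over the mean of the other 4 controls was 4.84-fold for PMEL, 3.30-fold for DCT, 2.54-fold for OCA2, 2.50-fold for TYR and 2.42-fold for TYRP1. It was 1.70-fold for SLC45A2, 1.68-fold for MITF and 1.20-fold for TRPM1, and SLC24A5 was at 0.873 times the mean of the other controls. In the operated retina of embryo 5, the same ratio to the other 4 operated retinas ran from 1.02 for MITF to 1.91 for TYR. The mean log2 change of the 9 genes was 0.020 in embryo 1, -0.72 in embryo 2, -0.40 in embryo 3, -0.49 in embryo 4 and -1.02 in embryo 5, and embryo 5 had the lowest change of the 5 for 6 of the 9 genes, beside 22.3% of all genes. Over the 5 embryos it was -0.52 ± 0.39 (SD, n = 5), and without embryo 5 it was -0.40 ± 0.31 (SD, n = 4).

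Embryo 1 was the opposite case. Its control was the lowest of the 5 controls for 8 of the 9 genes, beside 14.7% of all genes, and its change was the highest of the 5 for 7 of the 9, beside 26.5% of all genes. In embryo 1, 4 of the 9 genes were lower in the operated retina, against 8 in embryo 2, 7 in embryo 3, 9 in embryo 4 and 8 in embryo 5. With all embryos the ratio of the highest to the lowest library was smaller in the operated group for 8 of 9 genes, SLC24A5 being the exception, beside 52.8% of all genes. Without embryo 5, a comparison chosen after seeing the data, it was smaller for 6 of 9 genes, beside 41.7% of all genes, since PMEL (2.27 in operated and 2.05 in control retinas) and SLC45A2 (1.69 and 1.62) turned round. With all embryos that ratio ran from 1.13 for TRPM1 to 2.90 for SLC24A5 in operated retinas, and from 1.33 for TRPM1 to 7.23 for PMEL in controls.

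The genes were next compared in how they ordered the 10 libraries, as the number of the 45 pairs of libraries that a given pair of genes put in the same order. Since the 10 libraries came from 5 embryos, these numbers are a description and carry no p-value. Apart from SLC24A5, every pair of genes had at least 26 pairs of libraries in the same order. The closest were TYR with MITF and TYRP1 with SLC45A2, at 40 of 45 each, then DCT with MITF and TYRP1 with TRPM1, at 39 each. TYRP1 and SLC45A2 both lie on the Z chromosome, and the part of embryo sex in their common order was not tested. The most unlike, without SLC24A5, were DCT with TRPM1 (26), DCT with OCA2 (27) and PMEL with OCA2 (28). SLC24A5 had 22 to 27 pairs of libraries in common order with the other genes. Against the mean profile of the 9 genes, of which SLC24A5 is itself a part, it had 27, where the median over all genes of the table was 23.

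Within each group the pattern differed. Among the 5 controls, DCT ordered all 10 pairs of libraries as TYR, MITF and OCA2 did. Among the 5 operated retinas, DCT and OCA2 shared the order of 0 of 10 pairs, where OCA2 spanned only 2.18 to 2.77. For the within-embryo change, TYRP1 and SLC45A2, DCT and MITF, and TYR and TRPM1 ordered the 5 embryos alike in 10 of 10 pairs, and PMEL and SLC24A5 in 2 of 10.

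**Figure D4:**
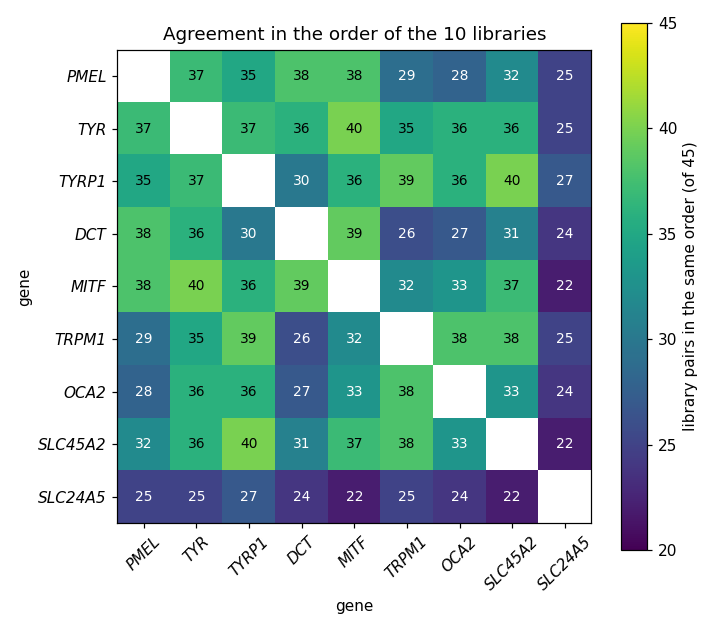
Number of the 45 pairs of libraries that 2 pigment epithelium genes (rows and columns) put in the same order; the diagonal is blank and the colour scale runs from 20 to 45. SLC24A5 shares 22 to 27 pairs with the other 8 genes, and TYR with MITF and TYRP1 with SLC45A2 share 40.

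Outside the set, the genes whose order of the libraries was most like the mean profile of the 9 pigment genes included PRSS35 (43 of 45), EGFR and PITX1 (42 each), and LPL, SH3BGR, TGFB2 and LRIT1 (41 each). Among the pigment genes themselves TYR had 43 and MITF 40, and 34 genes of the table reached 40 or more. Each pigment gene is part of the mean profile, which can raise its own number, so these are not comparable with those of outside genes. PRSS35, a secreted serine protease, was at 1.75, 1.79, 2.48, 1.69 and 2.04 in the operated retinas, and at 1.73, 6.11, 4.41, 3.73 and 14.9 in their controls. The level was highest in the control of embryo 5, a pattern by which the gene was chosen. The transcription factor gene PITX1 was at 1.88, 1.99, 2.14, 1.14 and 2.52 in the operated retinas, and at 1.77, 2.65, 6.81, 5.45 and 22.02 in their controls. These genes were chosen for their order of the libraries, so no test of their change is given.

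Other genes of the pathway were compared in the same fit. Of 32 genes of melanosome biogenesis and transport, 1 rose, 5 fell and 26 did not pass (median log2 change -0.063), and without embryo 5, 0 rose and 1 fell. Over all genes 11.5% rose and 10.1% fell, and 9.79% and 7.81% without embryo 5, and the lists that follow are to be read beside the same shares. MLANA, a melanosomal membrane protein that binds PMEL in mammals, fell to 3.17 ± 1.20 in operated retinas, against 9.44 ± 5.76 in controls (SD, n = 5 each; log2 change -1.20, SE 0.30, limma adjusted p = 0.021). Its call was lost without embryo 2 (adjusted p = 0.079), embryo 4 (0.088) or embryo 5 (0.065). RAB27A, which tethers melanosomes to their motor, fell to 18.6 ± 0.708 in operated retinas, against 25.1 ± 3.79 in controls (log2 change -0.40, adjusted p = 0.018; 0.087 without embryo 2 and 0.071 without embryo 4). HPS3, a subunit of a complex of lysosome-related organelles, rose to 90.8 ± 7.47 in operated retinas, against 74.8 ± 6.37 in controls (log2 change 0.28, adjusted p = 0.018; 0.053 without embryo 2, 0.097 without embryo 4 and 0.052 without embryo 5). SLC24A4, a relative of SLC24A5, was at 9.23 ± 0.945 in operated and 12.3 ± 1.29 in control retinas (log2 change -0.38, adjusted p = 0.023; 0.10 without embryo 2, 0.054 without embryo 3 and 0.052 without embryo 5).

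Genes that act in the specification of the pigment epithelium or against it moved both ways. Of 25 such genes, 4 rose, 5 fell and 16 did not pass (median log2 change 0.079). OTX1, a homeobox gene of the early pigment epithelium and the rim of the cup, fell by 0.75 on the log2 scale (SE 0.10, limma adjusted p = 0.0016), and the Wnt ligand gene WNT2B, active in the dorsal pigment epithelium and the rim, fell by 2.16 (SE 0.24, adjusted p = 0.00045). SOX9 and PAX2, transcription factor genes of the optic cup and stalk, rose by 1.74 and 0.56 (adjusted p = 0.00014 and 0.0014). TFEC, a close relative of MITF that was picked here after its values were seen, fell to 3.93 ± 0.796 in operated retinas, against 7.54 ± 1.96 in controls (log2 change -0.77, limma adjusted p = 0.017; 0.051 without embryo 2 and 0.083 without embryo 4). OTX2 and TFEB, of the same list, did not pass (log2 changes -0.29 and 0.011, limma adjusted p = 0.27 and 0.96).

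Of 14 genes of pigment epithelium function and the visual cycle, 4 rose, 0 fell and 10 did not pass (median log2 change 0.10, and 0.17 without embryo 5). Among the 10 that did not pass were RLBP1, RDH5, RDH10, STRA6 and MERTK, picked after their values were seen. Their log2 changes were -0.11, 0.12, -0.13, 0.089 and -0.10 (limma adjusted p = 0.52, 0.48, 0.23, 0.68 and 0.56). CLDN1, a tight junction protein, rose to 6.68 ± 1.68 in operated retinas, against 0.611 ± 1.11 in controls, where the control of embryo 5 was at 2.60 and the other 4 were at 0.042 to 0.21. TIMP3, a matrix metalloprotease inhibitor, rose to 22.5 ± 4.15 in operated retinas, against 9.12 ± 1.56 in controls (log2 change 1.21, limma adjusted p = 0.00033). ITGB8, an integrin chain, rose to 29.8 ± 2.01 in operated retinas, against 22.4 ± 1.79 in controls (adjusted p = 0.011; 0.052 without embryo 2 and 0.061 without embryo 4). The row named SLC16A3 rose to 99.3 ± 8.06 in operated retinas, against 54.8 ± 5.49 in controls; that symbol is also an older chicken name of the lactate transporter gene SLC16A8, so which of the 2 transporters was counted is uncertain. RPE65, BEST1, TTR and LRAT, which mark a mature pigment epithelium, were not analysed here.

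Markers of tissues next to the retina were compared in the same libraries. Of 11 markers of periocular mesenchyme, 6 fell, 0 rose and 5 did not pass (median log2 change -0.65), and without embryo 5, 5 fell and 1 rose. Their summed level was 70.1 to 101 in operated retinas and 70.8 to 248 in controls, and as for the pigment genes the control of embryo 5 was the highest (248) and that of embryo 1 the lowest (70.8). KERA, LUM and PRRX2, 2 corneal stroma proteoglycans and a mesenchymal homeobox gene, fell by 1.39, 1.12 and 0.96 on the log2 scale (limma adjusted p = 0.0064, 0.011 and 0.0082; LUM 0.061 without embryo 4, PRRX2 0.0503 without the pairing by embryo). For KERA the highest control (14.4) was not that of embryo 5. The gene that rose without embryo 5 was the collagen gene COL1A2 (log2 change 0.48, limma adjusted p = 0.011). With all embryos COL1A2 did not pass (0.21, adjusted p = 0.46). It had the highest mean of the 11 markers, at 33.7 in operated and 32.7 in control retinas. Of 7 markers of neural crest and of melanoblasts, the pigment cell precursors of the crest, 2 fell, 0 rose and 5 did not pass (median log2 change -0.27). Those that fell were the transcription factor genes SNAI2 (by 0.99 on the log2 scale, adjusted p = 0.012, and 0.060 without embryo 4) and ETS1 (by 0.85, adjusted p = 0.012, and 0.067 without embryo 4 or 0.072 without the pairing by embryo). The 7 markers summed to 51.9 to 65.1 in operated retinas and 57.2 to 83.4 in controls, of which embryo 2 was the lowest and embryo 5 the highest. Much of that sum came from EDNRB, at 30.2 to 42.3 in controls. By the mean log2(value + 1) of the 7 markers, the lowest control was that of embryo 1 (2.43, against 2.47 in embryo 2). KIT and EDNRB2, receptors that melanoblasts need, were picked after their values were seen. They were at 2.95 ± 0.913 and 1.54 ± 0.877 in operated and 2.26 ± 0.143 and 2.105 ± 1.66 in control retinas. EDNRB2 was highest in the control of embryo 5 (4.24), where KIT was at 2.27. For scale, OCA2 and SLC45A2, which had the lowest mean levels of the pigment genes, averaged 2.51 and 2.65 in operated and 6.93 and 5.27 in control retinas. The other pigment genes had higher mean levels, up to TRPM1 at 209 in operated and 281 in control retinas. SOX10 was not analysed here. No gene of either list was at 0 in any library, but this held for 12459 of all 12464 genes, and listed markers without a row were not counted. The part of these tissues in the levels of the pigment genes was not tested.

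**Figure D5:**
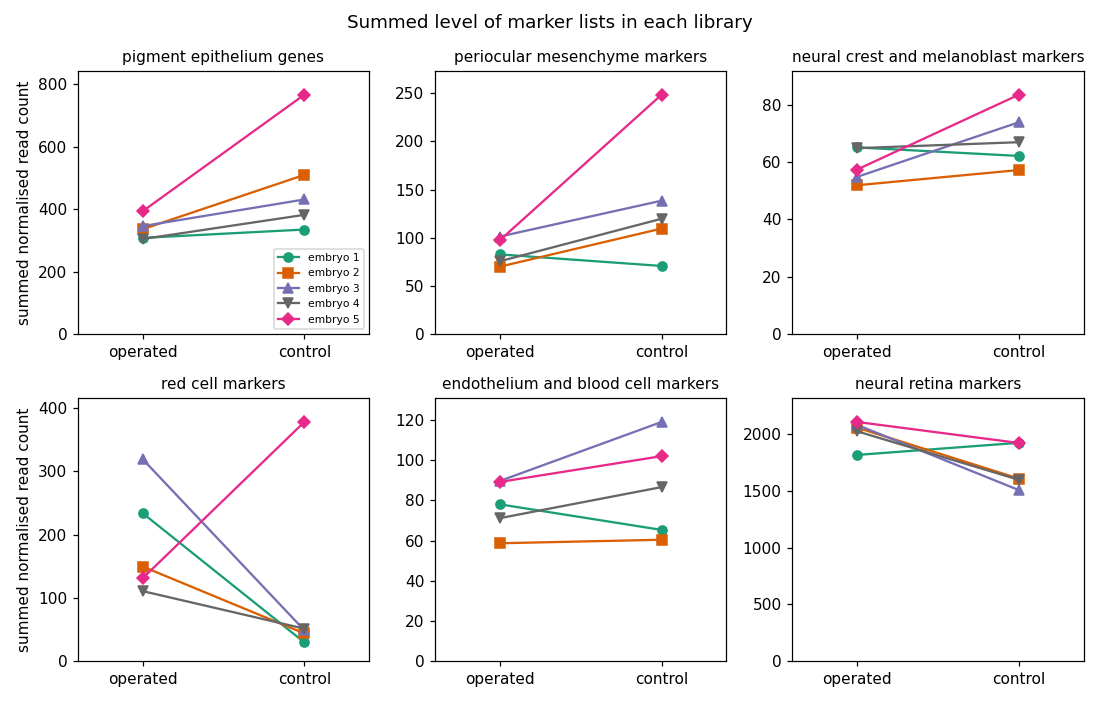
Summed normalised read count (y axis, from 0) of the pigment epithelium genes and of 5 lists of tissue markers in the operated and control retina of each embryo, joined by lines. Much of the pigment sum came from TRPM1, at 245 of 335 in the control of embryo 1 and 325 of 767 in that of embryo 5. The control of embryo 5 is highest for pigment, mesenchyme, neural crest and red cell markers. The red cell sums of embryo 5 are 131 in its operated and 378 in its control retina. The sum of neural retina markers is lower in the operated than in the control retina only in embryo 1. By the mean log2(value + 1) of these markers, not drawn here, the operated retina of embryo 1 was the higher (6.93 against 6.80).

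Red cell markers showed another order of the libraries. Their 5 genes summed to 111 to 319 in operated retinas and 30.03 to 378 in controls, where the highest control was again that of embryo 5. Of these genes 0 passed with all embryos by limma (unadjusted p under 0.05 for 4 of 5), and 5 of 5 rose without embryo 5. The embryonic globin genes HBBR and HBZ had log2 changes of 1.20 and 1.42 (adjusted p = 0.14 and 0.073), and of 1.94 and 2.11 (adjusted p = 0.0043 and 0.0029) without embryo 5. Of 12 neural retina markers 7 rose, 1 fell and 4 did not pass. FGF8, a growth factor of the central retina, rose by 1.43, and the homeobox gene RAX and the Notch target HES5 rose by 0.73 and 0.53 (adjusted p = 0.0024 and 0.0025; HES5 0.19 without the pairing by embryo). PAX6, which the neural retina and the pigment epithelium both express, fell to 272 ± 16.5 in operated retinas, against 357 ± 34.2 in controls. The part of blood in the pigment gene results was not tested.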

How the data were processed

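The authors deposited normalised read counts, a signal scaled to nearly equal totals per library, for 10 libraries of polyadenylated RNA; the scaling method and the use of strand were not stated in the labels. Per the submitters' processing notes, which assign no steps, the tools were HISAT2 2.1.0, Subread 1.6.2, featureCounts, SAMtools 1.9, Trim Galore 0.6.4 and FastQC 0.11.8, and the build was GRCg6a. Per the labels' protocols, libraries were made with a stranded mRNA kit.

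The members and lists were chosen with earlier results of these data known. limma 3.58.1 in R 4.3.3 (intensity trend, two-sided, Benjamini-Hochberg, threshold 0.05) was fitted to log2(value + 1) of all 12464 genes with the embryo as a block, and tested on simulated data. Titles give the pairs. Deviations from the group means correlated across genes at 0.31 to 0.66 within embryos and -0.47 to 0.32 between embryos. The highest value between embryos was for operated embryo 1 with control embryo 4. Deviations cancel out within a group, so positive values within embryos lower those between embryos, and this contrast is partly built in. No filter was used, so that low members were tested too; 4 of the 9 genes have a mean under 10. Low values were spaced by the worth of 1 read, and 89.9% to 91.6% of these low values were whole multiples within 0.01. Whole reads were therefore not recovered for all genes of the table, and no count model was used. Read numbers given for the pigment genes are their values divided by the worth of 1 read, rounded. For DCT 5 of 10 values were whole within 0.05, so part of its reads were counted as fractions. Text names the members, per list up to 4 passing genes by p (without any, the 2 most abundant), and the 8 genes of most similar library order; some of these genes are not reported here. Symbols were matched exactly, and no coordinates or sequences were used. Alternatives were pseudocounts of 0.5 and 5, a mean of at least 10, 2 rescalings, no block, a robust prior and leaving out each embryo. Python 3.11.15, pandas 2.3.3, numpy 2.4.6 and matplotlib 3.10.9 made the tables and figures.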

Additional observations from a re-analysis of the deposited data

Results flagged for a closer look

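In 4 of the 18 groups of 5 libraries formed by the 9 pigment genes, 1 library lay apart from the other 4 by more than Dixon's critical share of the group's range (0.71). Chance flags about 1 in 20 independent groups of normally distributed values. The 18 groups share the same 10 libraries, so that rate need not hold for them. Flagged were PMEL in the control of embryo 5 (199.8, with 83.2% of the range as gap), TYR and TYRP1 in the operated retina of embryo 5 (26.4 and 5.25) and SLC24A5 in the control of embryo 2 (10.5).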

How the results depend on the processing

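The number of pigment genes called lower stayed at 5 with pseudocounts of 0.5 and 5, both rescalings and the robust prior, was 4 with no replicate block (TYR lost its call), and was 2 of the 5 genes that have a mean of at least 10. It ran from 3 to 5 when 1 embryo was left out, with 3 without embryo 2 or embryo 4, and 0 pigment genes were called higher under any of the alternatives. The mean log2 change of these genes ran from -0.66 to -0.40 when 1 embryo was left out. Over all genes, leaving out 1 embryo gave 635 to 1932 higher and 393 to 1660 lower calls, against 1428 and 1262 with all; the counts without embryo 2 were 705 and 463, and without embryo 4 they were 635 and 393, and 838 were lower without embryo 3. With no replicate block 996 were higher and 853 lower. SLC24A5, called in no fit, ran from -0.040 without embryo 5 (adjusted p = 0.86) to 0.31 when 1 embryo was left out. The cause of these shifts was not tested. With 5 pairs, and 44 to 336 reads behind each value of SLC45A2, OCA2 and TYRP1, precision is limited for those genes in single libraries.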

Other observations

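Markers of 3 further tissues were compared. Of 8 lens genes, 2 rose, 1 fell and 5 did not pass. ASL1, a delta-crystallin gene, was at 4.58 ± 1.20 in operated and 2.62 ± 0.354 in control retinas (SD, n = 5 each; limma adjusted p = 0.0089), and the beta-crystallin gene CRYBA4 rose to 109 ± 24.7 in operated retinas, against 86.7 ± 14.8 in controls, a call that was lost without embryo 2 (adjusted p = 0.061) or without the pairing by embryo (0.19). CRYAB, a small heat shock protein, fell by 0.32 on the log2 scale (adjusted p = 0.028), a call lost without embryo 3, 4 or 5 (0.053, 0.12 and 0.072). Of 9 genes of endothelium and blood cells, 3 fell (FLI1, ERG and TIE1), 0 rose and 6 did not pass, and none of the 3 was called without embryo 2, 4 or 5. Of 5 surface ectoderm genes, the keratin genes KRT19 and KRT7 fell and 3 did not pass; KRT19 was at 3.77 ± 1.48 in operated and 8.53 ± 3.13 in control retinas (adjusted p = 0.00034), and KRT7 lost its call without embryo 2, 4 or 5 (adjusted p = 0.060, 0.11 and 0.063).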
